A study of Malus domestica with 99 samples.

Results

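Golden Delicious and Granny Smith apples were compared in ripe control fruit, that is, fruit that received no 1-MCP and was sampled 7, 14 and 21 days after harvest. The comparison used 18 of the 99 libraries of the series, 9 from each cultivar, which the deposited tables hold as 6 of 33 group columns, 1 for each cultivar and day. Transcript entries were kept when at least 3 of these 6 columns reached a log2 level of 4, and 31511 of 55627 entries (56.6%) met this. A difference is always the Golden Delicious log2 level minus the Granny Smith log2 level on the same day, so positive values mean higher in Golden Delicious. All fruit was apple (Malus domestica) and the sampled tissue was the fruit cortex, the flesh under the skin. The wider study also held fruit at harvest, at day 1 and after 2 months, fruit treated overnight after harvest with 1-methylcyclopropene (1-MCP), and another cultivar, Fuji. The labels give 3 libraries for each group, and the tables give only their mean.

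Apple is a climacteric fruit: at ripening it makes a burst of the hormone ethylene, which in turn drives softening, aroma and colour change. ACC oxidase makes ethylene from its precursor, receptors and EIN3-like factors carry the signal to the nucleus, and enzymes such as polygalacturonase then loosen the cell wall. 1-MCP occupies the ethylene receptors and so keeps the fruit from sensing the hormone. Golden Delicious is a yellow, aromatic apple that softens readily, and Granny Smith is a green, acid, firm apple that ripens late.

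The columns of both cultivars lay on 1 scale: the medians of the 6 columns ran from 4.57 to 4.60 and their 99th percentiles from 11.32 to 11.34. Genes of ripe flesh were high in both cultivars. Levels of 5 genes of ripe flesh (PG1, ACO1, SDH1, MALD1 and AFS1) were summed before taking log2. These sums were 15.84 to 16.33 in Golden Delicious and 14.08 to 15.04 in Granny Smith. They rest mostly on the highest genes, in Golden Delicious on ACO1. The skin pigment gene MdUFGT1-1 was listed at the floor of -1 in all 6 columns. The apples were yellow and green, so this does not show whether skin was present. Sums taken in the same way for 3 phloem genes were 6.55 to 8.36 in Golden Delicious and 7.53 to 7.78 in Granny Smith. Among these genes SEOb was at the floor in all 6 columns. No column went against its cultivar: of the 13 to 19 entries that were at or under 0 in the other 10 columns of a cultivar and at least 4 in all 11 of the other, 0 reached 4 in the column checked, for each of 22 columns.

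Of the 31511 entries, 12130 differed between the cultivars at an adjusted p under 0.05 (38.5%), 6042 higher in Golden Delicious (19.2%) and 6088 lower (19.3%). The test was limma's moderated test on the 3 day differences with Benjamini-Hochberg adjustment over all 31511 entries. At least a 2-fold difference was called for 4947 entries (15.7%), 2544 higher and 2403 lower, and at least a 16-fold difference for 257 higher and 245 lower. The median difference over all entries was 0.00 (-0.0017 before rounding) and the median absolute difference was 0.35 on the log2 scale. With day 14 left out 3312 entries were called and with day 21 left out 6731. The unit of replication is the day, so these p-values weigh each difference against the spread between 3 days and not between fruit or libraries, and cultivar cannot be told apart from orchard, harvest lot or library batch. In bulk tissue, fewer cells of a type and less RNA per cell cannot be told apart.

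RefSeq names were found for 222 genes among the kept entries. Of these genes 46 were higher in Golden Delicious, 49 lower and 127 not called, where 38.5% of all entries were called. The median difference of the named genes was 0.00 (-0.0037 before rounding) and their median absolute difference 0.36, close to that of all entries. The filter decided the fate of some: ARF2 entry NM_001294030 just passed, with 3.85, 3.21 and 4.03 in Golden Delicious and 4.44, 4.03 and 4.42 in Granny Smith, and MdSSK1 just missed it, with 3.06, 3.04 and 2.86 against 3.96, 5.14 and 4.58. Among named genes, DFR, MdTCP2A, UGT71K1 and YTP2 passed only through Golden Delicious and MYBR7 and C2H2L21 only through Granny Smith, so the filter itself favoured a difference in these 6.

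**Figure D1:**
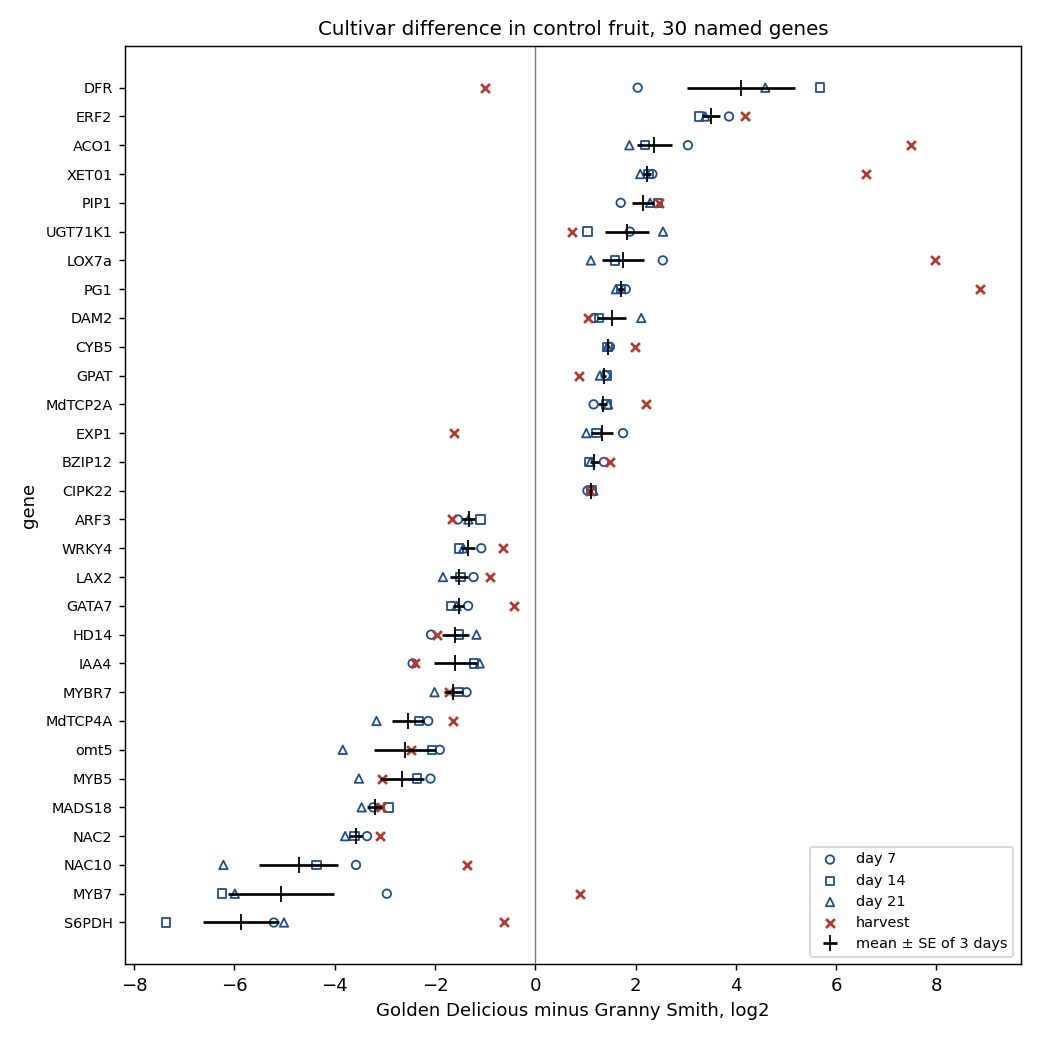
Difference between the cultivars (Golden Delicious minus Granny Smith, log2, x axis) in control fruit for the 15 named genes with the largest called differences in each direction (y axis). Open symbols are days 7, 14 and 21, black bars their mean ± SE, and red crosses the difference at harvest, which took no part in the test. PG1, LOX7a, ACO1 and XET01 stood far further apart at harvest than at days 7 to 21, and S6PDH, MYB7 and NAC10 far less.

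Of 3 ethylene synthesis genes matched by name, 1 was kept: ACO1 (NM_001294118), the ACC oxidase of ripening apple. Its log2 level was 15.30, 15.79 and 15.65 in Golden Delicious at days 7, 14 and 21, and 12.25, 13.61 and 13.77 in Granny Smith. Every Golden Delicious value lay above every Granny Smith value, and the gap narrowed over the 3 days. The mean difference was 2.37 ± 0.35 (SE, n = 3 days, adjusted p = 0.00288), which is 5.17-fold. Harvest fruit was further apart, at 13.17 and 5.67, and after 2 months the cultivars stood at 16.12 and 15.88.

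Ethylene perception and signalling held 10 genes, of which 2 were higher in Golden Delicious, 0 lower and 8 not called, where 38.5% of all entries were called, with a median difference of 0.10 against 0.00 for all entries. ERF2 (NM_001293919), an ethylene response factor, was at 7.37, 7.49 and 7.65 in Golden Delicious, against 3.51, 4.23 and 4.26 in Granny Smith. The groups were far from overlapping, and the difference of 3.51 ± 0.18 (SE, n = 3 days, adjusted p = 0.000431) was close to the 4.18 seen at harvest. EIL3 (XM_008359435), an EIN3-like factor that carries the signal in the nucleus, was at 9.73, 9.80 and 9.85 against 8.76, 8.98 and 8.88. It was higher in Golden Delicious on all 3 days, by 0.92 ± 0.05 (adjusted p = 0.00178), with 0.91 at harvest.

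The ethylene receptors were not called over the 3 days. ETR1 differed by 0.37 (adjusted p = 0.0524), ETR2 by -0.24, ERS1 by -0.20, ETR1b by 0.00 and ETR5 by -0.70. ETR5 was level between the cultivars at day 7, with a difference of -0.01, and lower in Golden Delicious at days 14 and 21, with differences of -1.10 and -1.0. CTR1, the kinase that holds the pathway off in Arabidopsis, differed by 0.06 and EIN2, the membrane protein downstream of it, by 0.15. ERF1 differed by 0.26 (adjusted p = 0.131). With day 7 left out ETR1 (0.48, adjusted p = 0.0055), ETR2 (-0.36, 0.00745) and ETR5 (-1.05, 0.00016) were called, and with the days unpaired ETR1 (0.0296) and ETR5 (0.0402).

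**Figure D2:**
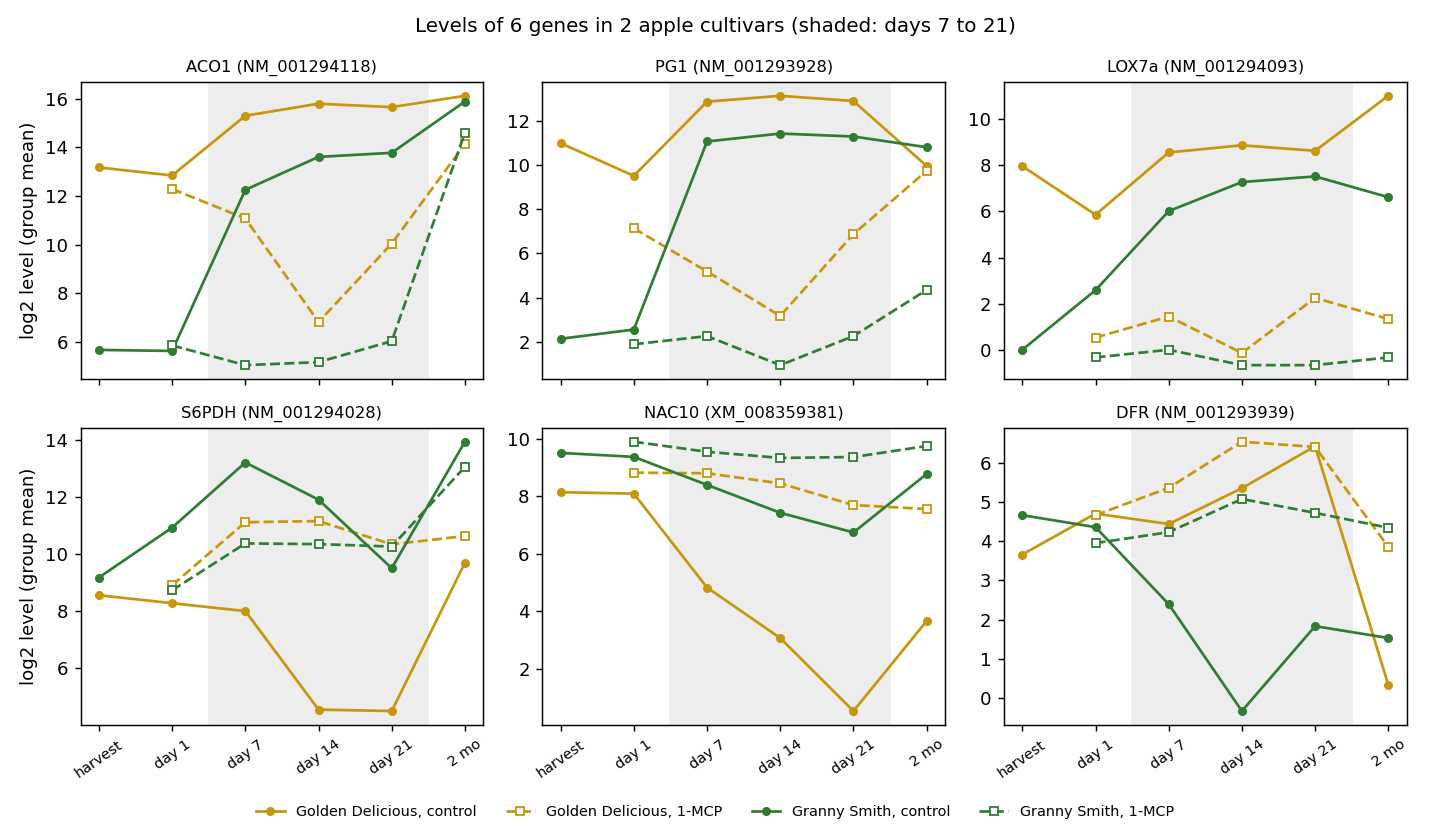
Log2 level (y axis, mean of a group's libraries as deposited) of 6 genes at harvest, at days 1, 7, 14 and 21 and after 2 months (x axis). Gold is Golden Delicious and green Granny Smith, filled symbols with solid lines are control fruit and open symbols with dashed lines 1-MCP fruit; shading marks days 7 to 21. ACO1, PG1 and LOX7a were already high at harvest in Golden Delicious and near their lowest in Granny Smith, whereas S6PDH and NAC10 parted after harvest in control fruit.

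Of 6 cell wall genes measured, 3 were higher in Golden Delicious, 2 lower and 1 not called, where 38.5% of all entries were called. PG1 (NM_001293928), the polygalacturonase that cuts pectin in ripening apple, was at 12.88, 13.14 and 12.91 in Golden Delicious and 11.07, 11.43 and 11.30 in Granny Smith. The groups did not overlap and the 3 daily differences were nearly equal, with a mean of 1.71 ± 0.06 (SE, n = 3 days, adjusted p = 0.000649). At harvest the same gene stood at 10.99 and 2.13, a difference of 8.86. After 2 months the order was turned, at 9.96 against 10.81.

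XET01 (NM_001294036), named for xyloglucan endotransglycosylase, an enzyme that cuts and rejoins xyloglucan chains, was at 8.38, 9.09 and 8.09 in Golden Delicious and 6.05, 6.83 and 6.0 in Granny Smith. Every day showed a gap of about the same size, 2.23 ± 0.07 on average (adjusted p = 0.000396). XET02 (NM_001294113), of the same enzyme family, went the other way: 5.01, 4.40 and 6.48 against 11.19, 8.78 and 7.32. Its gap closed from -6.19 at day 7 to -0.84 at day 21, so that the mean of -3.80 ± 1.57 was only just called (adjusted p = 0.0447). The call ended with day 7 left out (adjusted p = 0.39), with day 14 left out (0.196), with no filter (0.0943) and without limma's trend and robust options (0.0555).

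The expansin EXP1 (NM_001294111), a protein that loosens walls without cutting them, was at 7.37, 7.77 and 7.84 in Golden Delicious against 5.61, 6.55 and 6.83 in Granny Smith. It was higher in Golden Delicious on each day, by 1.33 ± 0.22 (adjusted p = 0.00373), while at harvest it had been lower, with a difference of -1.63. BGAL101 (NM_001293826), a β-galactosidase, was at 13.57, 12.26 and 12.20 against 14.16, 13.74 and 12.85. It was lower in Golden Delicious on each day, with a mean of -0.91 ± 0.28 (adjusted p = 0.0215), and had been higher at harvest by 2.80. Its columns overlapped between cultivars across days, and the call ended with day 14 left out (adjusted p = 0.116), with day 21 left out (0.0507) and with the days unpaired (0.18). AFase1, an α-arabinofuranosidase, differed by 0.08 and was not called.

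Aroma genes numbered 4 after the filter, of 11 matched by name. Of the 4, 1 was higher in Golden Delicious and 3 were not called, where 38.5% of all entries were called. LOX7a (NM_001294093), a lipoxygenase of the kind that starts the route from fatty acids to volatile aldehydes and esters, was at 8.56, 8.87 and 8.63 against 6.01, 7.27 and 7.52. The groups did not overlap, and the difference of 1.75 ± 0.42 (SE, n = 3 days, adjusted p = 0.0118) was smaller than the 7.96 at harvest, where Granny Smith was at 0.00. The call ended with day 14 left out (adjusted p = 0.0751). AFS1 (NM_001293893), the α-farnesene synthase, was at 9.28, 10.06 and 9.46 in Golden Delicious and 8.83, 11.03 and 11.02 in Granny Smith. Golden Delicious was the higher at day 7 and the lower at days 14 and 21, and the mean of -0.69 was not called (adjusted p = 0.231), although harvest fruit had differed by 6.59. With day 7 left out the AFS1 mean was -1.26 and was called (adjusted p = 0.000992). LOX5a and LOX8b differed by -0.11 and 0.00, and LOX5a was called with day 7 left out (-0.40, adjusted p = 0.0109).

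Of 9 flavonoid genes matched by name, 4 were kept. Among the 4, 2 were higher in Golden Delicious and 0 lower, where 38.5% of all entries were called. Of the 2, DFR passed the filter only through Golden Delicious, so the filter itself favoured this direction. DFR (NM_001293939), the reductase that leads towards anthocyanidins and condensed tannins, was at 4.43, 5.35 and 6.42 in Golden Delicious and 2.39, -0.33 and 1.83 in Granny Smith. The Granny Smith values came near the floor, so the size of the mean difference, 4.10 ± 1.08 (adjusted p = 0.0142), depends on how low levels were handled. The call ended with day 14 left out (adjusted p = 0.0782) or day 21 (0.0545). LAR1 (NM_001294114), leucoanthocyanidin reductase, which makes catechin units, was at 7.68, 7.50 and 7.53 against 7.09, 6.70 and 5.51. Golden Delicious was the higher on all 3 days, by 1.13 ± 0.45 (adjusted p = 0.0429), most at day 21, and the mean was 0.69 with day 21 left out. The LAR1 call ended with day 7 (adjusted p = 0.0807) or day 14 (0.131) left out, without the trend and robust options (0.0551) and with the days unpaired (0.0612). MdF3H, flavanone 3-hydroxylase, differed by 0.55 (adjusted p = 0.0643) and ANR2a, an anthocyanidin reductase, by 0.59 (adjusted p = 0.131). MdF3H was called with day 7 left out (adjusted p = 0.046) and without the trend and robust options (0.0258).

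Sugar, sorbitol and starch genes numbered 11, with 2 higher in Golden Delicious, 3 lower and 6 not called, near the 38.5% called over all entries. S6PDH (NM_001294028), the sorbitol-6-phosphate dehydrogenase that makes sorbitol, the main transport sugar of apple trees, had the largest difference of all named genes. It was at 8.01, 4.56 and 4.50 in Golden Delicious and 13.22, 11.92 and 9.51 in Granny Smith. Every Golden Delicious value lay below every Granny Smith value, and levels were lower at day 21 than at day 7 in both. The mean difference was -5.86 ± 0.75 (SE, n = 3 days, adjusted p = 0.00224), against -0.62 at harvest and -2.65 at day 1. With day 7 left out the mean was -6.19 and the call ended (adjusted p = 0.116).

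FK, fructokinase, was higher in Golden Delicious by 0.99 ± 0.35 (adjusted p = 0.0299) and HK, hexokinase, by 0.86 ± 0.15 (adjusted p = 0.015); both enzymes phosphorylate hexoses for use. Both calls ended with day 14 left out (adjusted p = 0.138 and 0.105). AMY10, an amylase, was lower by 0.59 on the log2 scale (difference -0.59, adjusted p = 0.0121) and GBSSIa, a granule-bound starch synthase, had a difference of -0.42 (adjusted p = 0.0231). Neither call held with day 14 (adjusted p = 0.0762 and 0.13) or day 21 (0.0706 and 0.147) left out. SDH1, sorbitol dehydrogenase, which turns sorbitol into fructose, differed by 0.25 (adjusted p = 0.102). The sorbitol transporter SOT2 was at 5.91, 5.03 and 4.10 against 6.32, 6.41 and 6.55, a difference of -1.41 that missed the threshold (adjusted p = 0.0503). It was called with day 7 left out (-1.92, adjusted p = 0.00145), with the days unpaired (0.041), with a lower filter (0.0485) or none (0.0479) and with 4 added to the values (0.0452).

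Of 2 carotenoid genes 1 was called, where 38.5% of all entries were. PSY2 (NM_001294092), phytoene synthase, the entry step of the pathway, was called higher in Golden Delicious. It was at 11.14, 10.60 and 10.08 against 9.65, 10.01 and 9.67, without overlap, for a difference of 0.83 ± 0.33 (SE, n = 3 days, adjusted p = 0.045). With day 7 left out the mean was 0.50, and the call ended with day 14 left out (adjusted p = 0.146) and without the trend and robust options (0.0615). ZDS1-1, ζ-carotene desaturase, differed by -0.03.

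Of 14 auxin genes matched by name, 7 were kept. Among the 7, 1 was higher in Golden Delicious, 2 lower and 4 not called, where 38.5% of all entries were called. IAA12 (NM_001294008), an Aux/IAA repressor, was at 8.71, 9.59 and 9.84 against 7.84, 7.49 and 7.71. It was higher in Golden Delicious on every day, by 1.70 ± 0.42 (adjusted p = 0.0124), with -0.27 at harvest. IAA4 (NM_001300877), of the same family, was lower in Golden Delicious, at 6.81, 6.42 and 6.36 against 9.25, 7.64 and 7.46, with a mean of -1.59 ± 0.43 (adjusted p = 0.0153) and -2.40 at harvest. Both of these calls ended with day 14 left out (adjusted p = 0.0863 and 0.0722). ARF3, an auxin response factor, had a difference of -1.32 ± 0.13 (adjusted p = 0.00214). The 4 genes of the allergen and defence list were not called, where 38.5% of all entries were. The fruit allergen MALD1 differed by 0.19, VSP by -0.31, and CAS1 and CAS2, β-cyanoalanine synthases, by 0.13 and -0.30. With day 7 left out MALD1 (0.29, adjusted p = 0.0199), VSP (-0.42, 0.00323) and CAS2 (-0.60, 0.00137) were called, and VSP also with the days unpaired (0.044).

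The 8 transcription factor lists held 60 kept genes, of which 9 were higher in Golden Delicious, 15 lower and 36 not called, near the 38.5% called over all entries, with a median difference of -0.08. Among 11 NAC factors kept, of 15 matched by name, 2 were higher and 3 lower. NAC10 (XM_008359381) was at 4.83, 3.07 and 0.53 in Golden Delicious and 8.40, 7.43 and 6.75 in Granny Smith. Levels were lower at each later day in both cultivars and the gap was wider, with a mean of -4.72 ± 0.78 (SE, n = 3 days, adjusted p = 0.00441) against -1.37 at harvest. NAC2 (NM_001294041) was at 5.77, 5.76 and 5.64 against 9.12, 9.36 and 9.43. Its gap was -3.58 ± 0.13 (adjusted p = 0.000267) in ripe fruit, -3.09 at harvest and -2.50 after 2 months. NAC22 had a difference of -0.67 (adjusted p = 0.00473), NAC23 of 1.10 (adjusted p = 0.00902) and NAC5 of 0.66 (adjusted p = 0.00868). The NAC22, NAC23 and NAC5 calls ended with day 14 left out (adjusted p = 0.0735, 0.0777 and 0.0886), that of NAC5 with day 21 left out (0.052) and that of NAC23 with the days unpaired (0.111).

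MADS-box factors, the family that holds the ripening regulators of many fleshy fruits, numbered 9 after the filter, of 15 matched by name. Of the 9, 1 was higher and 3 were lower, where 38.5% of all entries were called. MADS18 (NM_001293827) was at 2.79, 4.55 and 4.70 in Golden Delicious and 6.02, 7.47 and 8.16 in Granny Smith. It was lower in Golden Delicious at every stage, by -3.20 ± 0.16 in ripe fruit (difference, adjusted p = 0.000458) and -3.08 at harvest. DAM2 (XM_008380358), named for dormancy-associated MADS-box genes, was higher, at 5.86, 6.03 and 6.55 against 4.69, 4.75 and 4.44, with a mean of 1.52 ± 0.30 (adjusted p = 0.00621). MADS2 had a difference of -0.88 (adjusted p = 0.0152) and MADS7 of -0.73 (adjusted p = 0.00322). With day 14 left out the calls of DAM2 (adjusted p = 0.053), MADS2 (0.11) and MADS7 (0.0534) ended; that of MADS2 also ended with day 21 left out (0.0622), and those of MADS2 and MADS7 with the days unpaired (0.1 and 0.109). MADS8-1 differed by 0.14 and was not called.

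Of 17 MYB factors matched by name, 4 were kept. Among the 4, 1 was higher and 2 were lower, where 38.5% of all entries were called. MYB7 (NM_001294052) was at 4.37, 0.33 and 0.00 in Golden Delicious and 7.33, 6.58 and 5.99 in Granny Smith. Golden Delicious was close to the floor at days 14 and 21, and the difference of -5.06 ± 1.06 (adjusted p = 0.00798) was 0.88 at harvest. MYB5 (NM_001300879) was at 4.93, 4.79 and 3.99 against 7.01, 7.15 and 7.50, with a mean of -2.65 ± 0.44 (adjusted p = 0.00398) and -3.06 at harvest. MYB111 differed by 0.51 (adjusted p = 0.0238) and MYB30 by -0.03. With day 14 left out the calls of MYB7 (adjusted p = 0.0596) and MYB111 (0.125) ended, and that of MYB111 also with day 21 left out (0.0531).

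In the remaining families, 12 MYB-related factors gave 2 higher and 2 lower, 6 AP2-domain factors 1 and 3, and 7 WRKY factors 0 and 1. Then 7 homeobox factors gave 1 and 1, and 4 CONSTANS-like and heat shock factors 1 and 0. In the same order 15, 6, 11, 11 and 6 genes had matched by name. Over all entries 38.5% were called. The largest differences in these families were MYBR7 at -1.64 (adjusted p = 0.01), HD14 at -1.59 (adjusted p = 0.00373), WRKY4 at -1.34 (adjusted p = 0.00459) and AP2D42 at -1.29 (adjusted p = 0.00113). On the other side stood MYBR2 at 1.14 (adjusted p = 0.00653), MYBR5 at 0.84 (adjusted p = 0.00523), HD6 at 0.83 (adjusted p = 0.00294) and AP2D14 at 0.71 (adjusted p = 0.0266). MYBR7 passed the filter only through Granny Smith, which favoured its direction. With day 14 left out the calls of MYBR7 (adjusted p = 0.0767), WRKY4 (0.0576), MYBR2 (0.072), MYBR5 (0.0659) and AP2D14 (0.155) ended, and that of AP2D14 also with day 21 left out (0.137). The smaller called differences were -0.66 for MYBR9, -0.63 for AP2D38, -0.85 for AP2D55 and 0.48 for HSF3, and each of these 4 calls ended with day 14 (adjusted p = 0.215, 0.192, 0.132 and 0.147) or day 21 (0.148, 0.0815, 0.0689 and 0.0864) left out. Those of MYBR9 and HSF3 also ended without the trend and robust options (adjusted p = 0.0637 and 0.0618) and with the days unpaired (0.0518 and 0.0771).

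Outside the lists, PIP1 (NM_001294021), which carries the name of the plasma membrane aquaporins, was at 11.57, 10.55 and 10.01 in Golden Delicious and 9.86, 8.10 and 7.72 in Granny Smith. Both cultivars had lower levels at later days, and the mean difference was 2.15 ± 0.23 (SE, n = 3 days, adjusted p = 0.00116). CYB5 (XM_008383138), cytochrome b5, an electron carrier, was at 10.61, 10.64 and 10.62 against 9.12, 9.20 and 9.18. Neither cultivar moved by more than 0.1 over the 3 days, and the gap was 1.46 ± 0.02 (adjusted p = 0.00063). GPAT, a glycerol-3-phosphate acyltransferase, differed by 1.37, the kinase CIPK22 by 1.11, BZIP12 by 1.18, MdTCP2A by 1.35 and the glycosyltransferase UGT71K1 by 1.83, each called higher. MdTCP2A and UGT71K1 passed the filter only through Golden Delicious, which favoured this direction. Called lower were the O-methyltransferase omt5 at -2.60, MdTCP4A at -2.54, GATA7 at -1.53 and the auxin influx carrier LAX2 at -1.52. With day 14 left out the calls of omt5 (adjusted p = 0.0576), MdTCP2A (0.0977) and UGT71K1 (0.0514) ended; that of omt5 also ended with day 7 left out (0.17), and those of MdTCP2A and UGT71K1 with day 21 left out (0.0614 and 0.0517).

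Most entries at least 2-fold apart in ripe fruit were so at harvest. Of the 2544 entries called at least 2-fold higher in ripe Golden Delicious, 62% were at least 2-fold higher at harvest, where 11.5% of all kept entries were; at day 1 these shares were 68.4% and 10.8%, and after 2 months 56.1% and 10.5%. Of the 2403 entries called at least 2-fold lower, 54.4% were so at harvest against 8.24% of all entries, 55.1% against 7.35% at day 1 and 59.3% against 11.4% after 2 months. The opposite direction at harvest, past 2-fold, was seen for 1.85% of the higher and 5.04% of the lower entries. Single columns carry no test, so these are counts past a fixed fold.

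**Figure D3:**
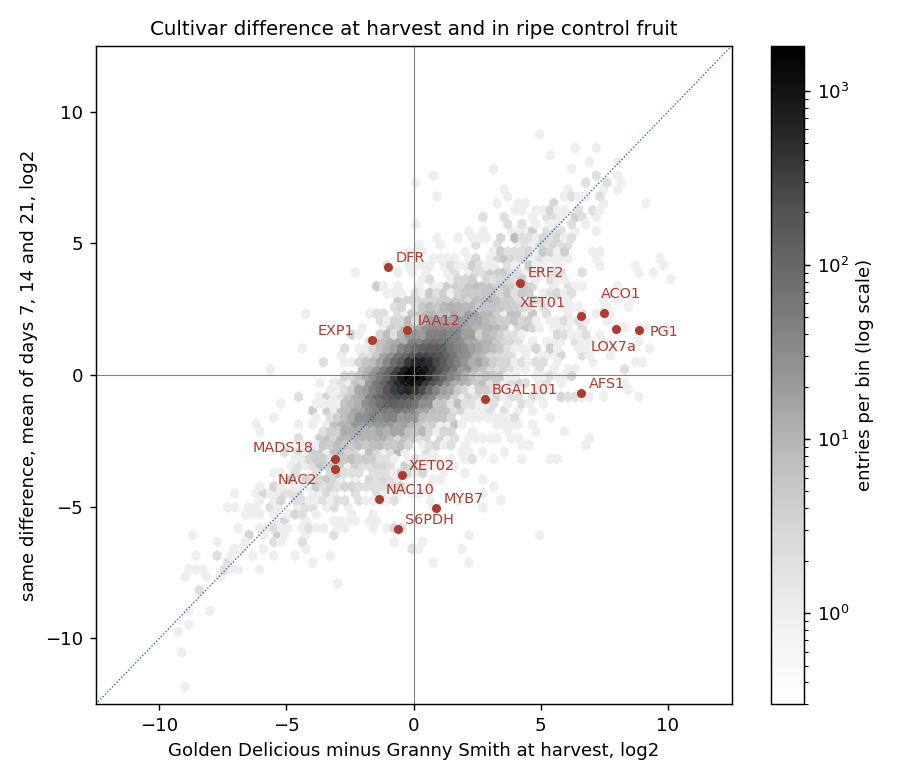
Difference between the cultivars at harvest (x axis, log2) against the mean difference at days 7, 14 and 21 (y axis, log2) for the 31511 kept entries, shaded by entries per bin on a log scale. Red points are 16 genes described in the text, picked after their values were seen, and the dotted line marks equal differences. NAC2, MADS18 and ERF2 lie near the line, ACO1, PG1, LOX7a and XET01 far to its right, and DFR, S6PDH, MYB7 and NAC10 away from 0 mainly in ripe fruit.

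The named genes fell into several time courses. The gap was widest at harvest and shrank in ripe fruit for ACO1, PG1, LOX7a and XET01, from between 6.59 and 8.86 to between 1.71 and 2.37. It was of like size at harvest and in ripe fruit for NAC2, MADS18, MYB5, ERF2, CYB5, EIL3 and CIPK22. It opened after harvest for S6PDH, NAC10 and XET02, whose harvest differences were -0.62, -1.37 and -0.47, though that of XET02 narrowed again by day 21. MYB7, DFR, EXP1 and BGAL101 had the opposite sign at harvest, with 0.88, -1.0, -1.63 and 2.80, as did IAA12. No test was run on these changes over time.

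The number of entries at least 2-fold apart was 6208 at harvest (19.7%), 5711 at day 1 (18.1%), 5517, 5758 and 5948 at days 7, 14 and 21, and 6906 after 2 months (21.9%). At harvest more of them were higher in Golden Delicious, 3611 against 2597. At days 7 to 21 the directions were closer to balance, with 2928 against 2589 at day 7 and 3050 against 2898 at day 21. In 1-MCP fruit 17.1% of entries were at least 2-fold apart at day 1 (10.1% higher and 7% lower) and 16.8% after 2 months (9.37% and 7.4%). All these counts cover the entries kept by their levels in ripe control fruit.

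**Figure D4:**
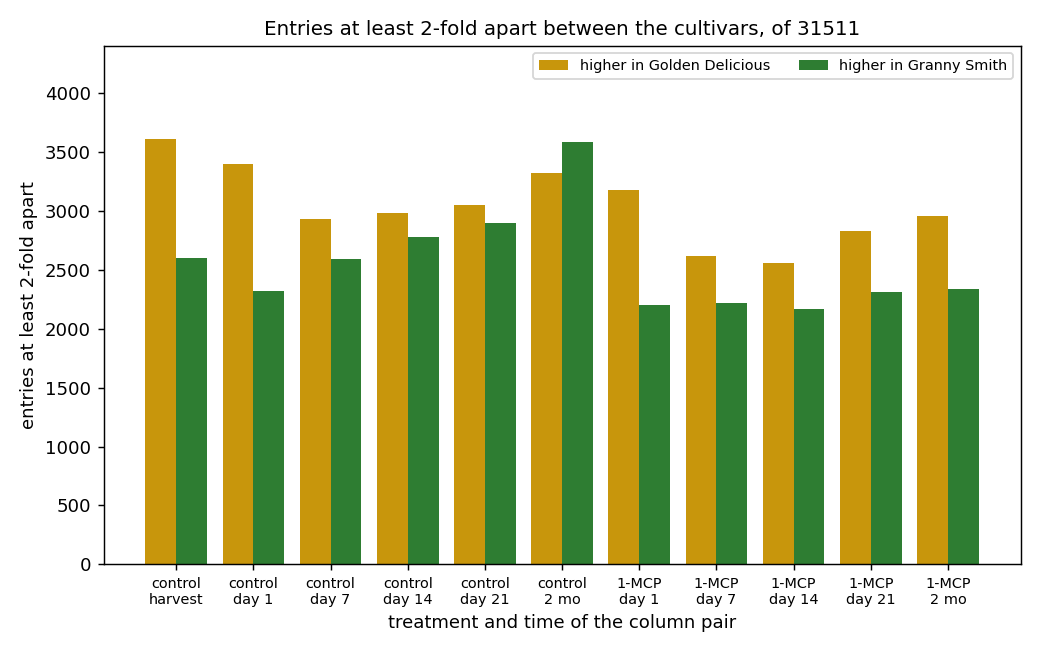
Number of the 31511 kept entries at least 2-fold apart between the cultivars (y axis) in each pair of columns (x axis: treatment and time). Gold bars are entries higher in Golden Delicious and green bars entries higher in Granny Smith. Harvest and day 1 fruit had more entries higher in Golden Delicious, and 1-MCP fruit at days 7 to 21 had fewer entries apart (4832, 4723 and 5144) than control fruit at those days. The entries were kept by their levels in ripe control fruit, so those high only in 1-MCP fruit are missing. With the filter on 1-MCP fruit itself, 15.4% of entries were called and at least 2-fold apart, against 15.7% in control fruit.

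Most entries at least 2-fold apart in control fruit were so in 1-MCP fruit as well. Among 31739 entries that passed the same filter in 1-MCP fruit at days 7 to 21, 17174 differed between the cultivars (54.1%), 27.1% higher in Golden Delicious and 27% lower, and for 15.4% the difference was called and at least 2-fold. Of the entries called at least 2-fold higher in control fruit, 66.4% were at least 2-fold higher in the mean of the 1-MCP days (8.05% of all kept entries were), and of those called lower 61.3% were (6.56%). NAC2 differed by -2.67 in 1-MCP fruit, MADS18 by -2.41, MYB5 by -2.36, MdTCP4A by -2.61, CYB5 by 1.61 and EIL3 by 0.92, all called (adjusted p from 1.21e-06 to 6.85e-05). On each of these days PG1 and LOX7a had lower levels with 1-MCP than without it in both cultivars, and neither passed the filter there: PG1 was at 5.18, 3.16 and 6.87 in Golden Delicious and 2.25, 0.94 and 2.25 in Granny Smith, and LOX7a had means of 1.18 and -0.44. Of the lists, 4 of 6 cell wall genes and 2 of 4 aroma genes passed that filter. From these, 2 and 1 were called higher in Golden Delicious, where 54.1% of all entries were called in 1-MCP fruit. ACO1 was at 11.07, 6.82 and 10.04 against 5.04, 5.17 and 6.03, a difference of 3.90 ± 1.27 that was not called (adjusted p = 0.112).

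For 1531 of 31511 entries (4.86%) the difference between control and 1-MCP fruit itself differed between the cultivars, 647 in the positive direction (2.05%) and 884 in the negative (2.81%), by limma on the 3 daily double differences; 3.13% were called and at least 2-fold. With day 14 left out only 1 entry was called and with day 7 left out 5895, so this count rests on which days were used, and without the trend and robust options 649 were called. S6PDH was at 11.13, 11.17 and 10.35 in 1-MCP Golden Delicious and 10.38, 10.36 and 10.28 in 1-MCP Granny Smith. In 1-MCP fruit Golden Delicious was thus slightly the higher, by 0.54 (adjusted p = 0.0432; not called without day 7 or day 14, with the days unpaired or without the trend and robust options, at 0.175, 0.136, 0.0845 and 0.0508), where in control fruit it was lower, and the double difference was -6.40 ± 0.92 (adjusted p = 0.0193). NAC10 was at 8.81, 8.45 and 7.70 against 9.55, 9.34 and 9.37 with 1-MCP, a gap of -1.10 where control fruit had -4.72, with a double difference of -3.61 ± 0.50 (adjusted p = 0.0121). The S6PDH double difference was not called with any 1 day left out (adjusted p = 0.251, 0.0665 and 0.0633 without days 7, 14 and 21), nor that of NAC10 without day 14 (0.15) or with the days unpaired (0.136). The phloem lectin gene pp2-1 also had a called double difference, -2.24 ± 0.35 (adjusted p = 0.0113; 0.176 without day 14). Its level in control fruit was 7.47, 6.59 and 5.80 in Golden Delicious against 6.68, 6.70 and 6.75, and with 1-MCP 7.42, 7.46 and 7.37 against 5.08, 5.11 and 5.62; its part in the other double differences was not tested. The double differences of PG1 (-1.55, adjusted p = 0.186), ACO1 (-1.53, adjusted p = 0.306) and LOX7a (0.12, adjusted p = 0.936) were not called.

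**Figure D5:**
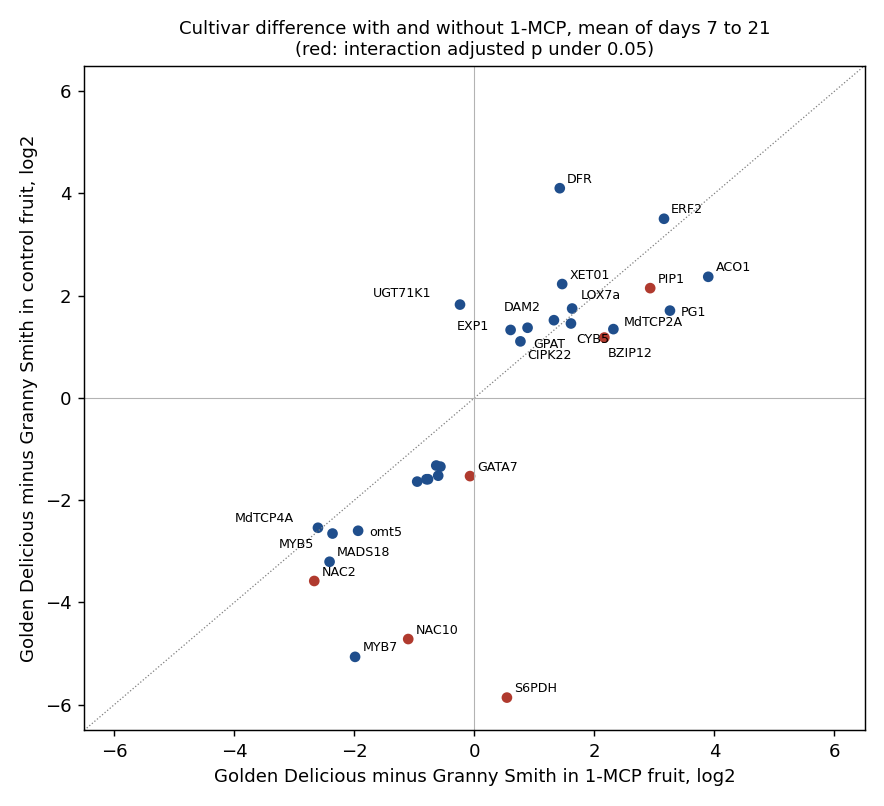
Mean difference between the cultivars at days 7 to 21 in 1-MCP fruit (x axis, log2) against that in control fruit (y axis, log2) for the 30 named genes with the largest called differences in control fruit; 6 crowded points near -1 and -1.5 carry no name. Red marks genes whose double difference was called, and the dotted line marks equal differences. S6PDH lies at 0.54 and -5.86 and NAC10 at -1.10 and -4.72, while MYB5, CYB5 and ERF2 lie near the line.

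Some entries were on in 1 cultivar and near the floor in the other. At least a log2 level of 4 in all 3 ripe columns of Golden Delicious with at most 0 in all 11 Granny Smith columns was seen for 36 of the 31511 kept entries. The reverse was seen for 27 of the 31511. By this definition each passed the filter only through the cultivar where it was high, so the filter itself favoured a difference. In all, 956 kept entries reached 4 only in Golden Delicious columns and 895 only in Granny Smith columns. Outside these sets, since the lower cultivar rose above 0 in some columns, the entries furthest apart in each direction over all kept entries were named after their values were seen. XM_008363364 was at 0.33, 0.67 and -0.14 in Golden Delicious and 12.35, 12.18 and 11.87 in Granny Smith. XM_008386594 was at 8.99, 10.27 and 10.82 against 0.72, 0.53 and 1.39. The reference table gives neither of these entries a gene name. For such entries a difference in sequence that keeps reads from mapping and a difference in level cannot be told apart.

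Fuji gave a further point for the 15619 kept entries in its table. Of 1202 entries called at least 2-fold higher in Golden Delicious, Fuji was nearer to Golden Delicious for 54.1% and lay between the cultivars for 57.5%. Over all kept entries these shares were 53.8% and 34.1%. The called entries were chosen for a wide gap between the cultivars, which by itself leaves more room to lie between. The 57.5% therefore does not show that Fuji was intermediate. Of 1135 called lower, 50% were nearer to each. ACO1 was at 14.67, 14.54 and 13.98 in Fuji, between the other two. LOX7a at 8.78, 9.25 and 9.37 was above Golden Delicious on each day, and XET01 at 5.53, 5.85 and 5.76 was below Granny Smith. The Fuji mean of day 14 rests on 2 libraries by the steps of its low values, and Fuji entered no test.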

How the data were processed

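Fruit cortex RNA was sequenced as non-directional 100-base libraries, 3 per group, per the labels' protocols. The submitters' processing notes name STAR 2.5.1a and HTSeq; the genome build and the normalization are not given in the sources used here. The values are log2 levels that the authors deposited as 1 mean per group, with a floor of -1 (a 0 entered as 0.5). The low values of the 6 columns were whole in steps of 3 libraries. Depth is unknown, so no counting interval is given. Apart from the summed levels of flesh and phloem genes, levels were not compared between genes. Those sums depend on a normalization that is not given. Without strand, overlapping and antisense genes cannot be told apart, and near-identical copies share reads.

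The Golden Delicious and Granny Smith tables were joined by entry. Differences at days 7, 14 and 21 were tested with limma 3.58.1 (R 4.3.3; trend on mean level, robust) in a fit over all kept entries, with Benjamini-Hochberg adjustment and a threshold of 0.05; the same was done for 1-MCP fruit and for the double difference. SEs are over the 3 days. The procedure was tested on simulated data in which the days were independent, which the days of the real fruit need not be. Names came from RefSeq (assembly GDT2T_hap1), ignoring version numbers: 22330 of 55627 entries matched (40.1%) and 439 had a gene name. Patterns for malate, chlorophyll and browning genes matched no name. Named genes were the members of the lists, and per direction the 15 called genes with the largest mean difference among those with at least 2-fold on each day, using for a gene the entry of highest level; 15 genes higher and 16 lower met this. The members and lists were chosen with earlier results of these data known.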

Additional observations from a re-analysis of the deposited data

Results flagged for a closer look

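The cultivars differed in the response to 1-MCP at days 7 to 21, tested as a double difference (control minus 1-MCP in Golden Delicious, minus the same in Granny Smith), for 1531 entries, and for 1 with day 14 left out (3177 at an unadjusted p under 0.05 by limma). Of 222 named genes kept, 18 passed that test, where 4.86% of all entries did. Of these 18, 0 passed with day 14 left out, 11 with day 21 left out and 17 with day 7 left out. With the days unpaired 8 passed, and 9 without limma's trend and robust options. The values that follow are the log2 double differences of the 18 genes. Below 0 were S6PDH at -6.40, NAC10 at -3.61, the sorbitol transporter SOT2 at -2.27, the phloem lectin gene pp2-1 at -2.24, MYB30 at -1.78, GATA7 at -1.46, MAPK at -1.18, NAC23 at -1.05, BZIP12 at -0.98, CAS2 at -0.98, NAC2 at -0.91, PIP1 at -0.78 and AP2D42 at -0.65. Above 0 were ATG8g at 0.60, NAC1 at 0.69, MdTCP2B at 1.41, LAR1 at 1.72 and NAC4 at 1.94. With the days unpaired the calls of NAC10 (adjusted p = 0.136), SOT2 (0.0664), NAC23 (0.286), BZIP12 (0.129), CAS2 (0.104), PIP1 (0.619), AP2D42 (0.0765), NAC1 (0.668), LAR1 (0.0584) and NAC4 (0.098) ended. MYB30 stood level in control fruit (difference -0.03) and 1.75 higher in Golden Delicious in 1-MCP fruit, at 6.74, 6.73 and 7.28 against 4.96, 4.92 and 5.60. NAC4 had a mean difference of -0.11 in control fruit, not called, but its days were unlike. Its double difference was 2.24 without day 7 and 1.66 without day 21. In 1-MCP fruit NAC4 was lower in Golden Delicious, by -2.04 as a difference, at 3.60, 4.18 and 4.18 against 5.73, 6.22 and 6.14. GATA7 differed by -1.53 in control and -0.07 in 1-MCP fruit, and SOT2 by -1.41 and 0.86.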

How the results depend on the processing

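No paired analysis was possible because the deposited columns hold group means with no replicate numbers, so libraries could not be paired; the days were paired, and unpaired they gave 11791 entries called in control fruit. The number of entries called in control fruit ran from 3312 to 15760 when 1 day was left out, the lowest without day 14, and that of the double difference from 1 to 5895; fewer days enter these fits. Without limma's trend and robust options the double difference gave 649 entries. At day 1, a filter at a log2 level of 2 gave 8593 entries at least 2-fold apart against 5711, with more entries tested. The number of calls in 1-MCP fruit, and those at harvest and 2 months, stayed within 1.5 times under each alternative run, and no named gene changed direction while called. Counted over the 26983 entries at 4 or more in all 6 columns, a choice made after seeing the data, 9369 (34.7%) were called in control fruit. Of 55 called among 120 named genes, 32 calls were lost without day 14, 14 without day 21, 4 without day 7, 7 with the days unpaired, 5 without the trend and robust options and 1 with no filter; calls were gained for 16 genes without day 7, 5 with the days unpaired and 1 each without day 21, without the trend and robust options, with no filter, with the lower filter and with 4 added to the values. Group means hide the spread between libraries, and precision is limited by 3 days.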

Other observations

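A pair of entries near the floor in Golden Delicious at days 7 to 21 were well above it in its control fruit after 2 months, chosen after their values were seen. XM_008363368 was at 0.00, -0.14 and 0.33 at days 7, 14 and 21 and at 7.48 after 2 months, with 9.84 in Granny Smith then. XM_008340764 was at 1.20, 2.46 and 1.53 and then at 8.37, with 10.84 in Granny Smith. In 1-MCP Golden Delicious after 2 months the same entries were at 1.67 and 1.97.

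Of 1687 RefSeq genes with several kept entries, 132 had at least 2 entries called and at least 2-fold apart, and in all 132 these entries went in 1 direction. Entries of a gene share sequence and so are not independent.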
